A study of Mus musculus with 4 samples.

Results

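The 346 probes described here surround 4 sites on mouse chromosome X that had the highest ratios of nascent to genomic DNA, in strands of 300–800 nt, among the fragments without a probe on the study's list of replication origins (ORIs). They are the tiled 60-mer probes, present on all 4 arrays, whose fragment number lies within 30 of 43161, 43684, 45447 or 66995. Of the 19805 probes on all 4 arrays, 115 fell around fragment 43161, 87 around 43684, 74 around 45447 and 70 around 66995. The sites were selected on the 300–800 nt ratios, so those ratios are given as a description only, and tests were made on the 100–600 nt arrays, which the choice did not use. Probes are named by fragment and offset, so that 43161/340 is the probe at offset 340 of fragment 43161.

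DNA replication starts at ORIs, where short RNA primers are laid down and new strands grow outwards. The shortest nascent strands are therefore richest in sequence close to an ORI and become rarer with distance from it, and probes that lie side by side are expected to be enriched together. Digestion with λ-exonuclease is used to raise the share of primed strands in such preparations. In mammals many ORIs lie at CpG islands and gene promoters. The ratio of a probe is the nascent signal divided by the genomic signal, and both channels are described below for that reason.

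The nascent strands and the genomic DNA came from PGK12.1, a female mouse embryonic stem (ES) cell line, untreated and growing asynchronously. Strands of 300–800 nt or of 100–600 nt were taken from sucrose gradients, digested with λ-exonuclease and hybridised against total genomic DNA of the same cells, on 2 arrays for each size. Nascent DNA carried Cy3 on the 300–800 nt arrays and Cy5 on the 100–600 nt arrays. The print design and the scanner software version changed with it, so strand length, dye and array design cannot be told apart.

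On the 300–800 nt arrays each probe had 2 spots, and the ratios of the arrays had a squared correlation of 0.969 over 19805 probes. Over all probes, the spread of a probe between these arrays (SD 0.0921, log2 scale) was smaller than its repeated spots would give (0.111). Over all probes the arrays thus agree within spot noise, and they were counted as 1 sample, with the value of each shown. The differences at the sites are given below. The 100–600 nt arrays mostly had 1 spot per probe, and their squared correlation was 0.351 over the 15478 probes measured on both. Of the 346 probes around the sites, 314 and 296 had a usable spot on 100–600 nt replicates 1 and 2, and 268 had one on both. The study describes the hybridisations of the longer strands as biological replicates, whereas the labels do not say whether the arrays of a size class came from separate cultures, and p-values measure only the spread between 2 hybridisations.

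The probes of the 4 fragments are shown 5′ to 3′ as the array files give them, because the 300–800 nt signal rests on single probes and their neighbours. CpG dinucleotides are in capitals, since CpG-rich sequence is a common feature of mammalian ORIs. For each fragment the highest probe comes first.
43161/340: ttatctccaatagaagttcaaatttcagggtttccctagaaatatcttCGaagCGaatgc
43161/70: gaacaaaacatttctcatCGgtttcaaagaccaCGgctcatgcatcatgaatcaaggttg
43684/1040: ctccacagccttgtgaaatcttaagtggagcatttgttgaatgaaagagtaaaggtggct
43684/770: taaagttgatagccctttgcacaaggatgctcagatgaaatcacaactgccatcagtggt
43684/520: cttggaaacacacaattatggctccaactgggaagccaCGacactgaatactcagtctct
43684/400: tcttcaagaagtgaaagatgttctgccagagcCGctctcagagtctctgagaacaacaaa
43684/30: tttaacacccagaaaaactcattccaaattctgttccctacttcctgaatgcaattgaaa
45447/140: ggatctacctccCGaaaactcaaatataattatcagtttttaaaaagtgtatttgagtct
66995/30: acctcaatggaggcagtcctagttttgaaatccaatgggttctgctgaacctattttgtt
66995/340: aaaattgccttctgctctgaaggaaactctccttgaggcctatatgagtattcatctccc

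None of the 4 highest probes was rich in C+G. Their C+G content was 36.7% in 43161/340, 41.7% in 43684/1040, 30% in 45447/140 and 41.7% in 66995/30, against a median of 41.7% over all 19805 probes. Probe 43161/340 held 2 CpG dinucleotides, 45447/140 held 1, and 43684/1040 and 66995/30 held none. Over all probes 57.8% held none and 12.2% held at least 2. Across the 346 probes the median C+G content was 41.7% and 42.8% held a CpG, against 42.2% of all probes. The 150 probes on the ORI list, shown only for scale, had a median C+G content of 48.3% and a CpG in 64.0%.

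The array files give a chromosome, a fragment number, a fragment length and an offset for each probe but no base position, so no coordinates are given. Gene starts were placed instead by matching probes to RefSeq promoter windows (250 bases before to 50 after each gene start) and miRNA hairpins of GRCm38.p6, over at least 30 shared bases. Fragment 43161 lay between the starts of Mbnl3 and Hs6st2, a heparan sulphate sulphotransferase gene, and at least 128450 bp from the latter, on the side towards which Hs6st2 is transcribed. Fragment 43684 lay between the starts of Usp26, a deubiquitinase gene, and Gm35790, at least 35841 and 40754 bp from them. Fragment 45447 lay between the start of Hprt, the purine salvage enzyme used for selection in ES cells, and the hairpin of Mir542. Fragment 66995 lay between the starts of Ssr4 and Pdzd4, a gene for a PDZ domain protein.

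For 45447 and 66995 the nearest such anchor was itself among the probes described, and both anchors are shown because they place the sites beside annotated genes. All 60 bases of each probe, in capitals, occur in the RefSeq sequence named or in its reverse complement.
45450/100, in the Mir542 hairpin: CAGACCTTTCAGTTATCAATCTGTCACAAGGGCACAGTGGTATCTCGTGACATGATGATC
66999/1040, in the Pdzd4 promoter window: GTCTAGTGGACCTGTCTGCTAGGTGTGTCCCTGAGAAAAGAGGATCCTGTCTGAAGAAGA
The Mir542 probe lay 3 fragments and at least 1416 bp from 45447/140, and its 300–800 nt log2 ratios were 0.10 and 0.15. Its 100–600 nt log2 ratios were -0.07 and 0.73 (limma, adjusted p = 0.374). The Pdzd4 probe lay 4 fragments and at least 2063 bp from 66995/30, with 300–800 nt log2 ratios of -0.04 and -0.05 and 100–600 nt log2 ratios of 0.88 and 0.29 (limma, adjusted p = 0.0907). Both lay near the median of all probes in 300–800 nt strands. The fragment of the Pdzd4 probe was not flat, as 66999/840, named after its values were seen, had 300–800 nt log2 ratios of 1.56 and 1.58. Its 100–600 nt log2 ratios were 0.16 and 0.17 (limma, adjusted p = 0.648).

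Probe 43161/340 had the highest 300–800 nt ratio of all 19805 probes after loess normalisation. Its log2 ratios were 3.56 and 3.15 on the 2 arrays, and its 4 spots ranged from 3.09 to 3.70. The other probe of the fragment, 43161/70, started 270 bp away and had log2 ratios of 0.44 and 0.23. On the other side, 43160/20 started at least 285 bp away and had log2 ratios of -1.30 and -1.39, among the lowest of its surroundings. The next fragment, 43162, ranged from -1.45 at 43162/350, the lowest probe of this neighbourhood, to 0.51 at 43162/10. The enrichment in 300–800 nt strands was thus carried by a single probe between a neighbour near the median and a depleted one.

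In 100–600 nt strands 43161/340 had log2 ratios of 0.50 and 1.19, above 0 on both arrays (mean 0.84 ± 0.48, SD, n = 2; limma SE 0.23, adjusted p = 0.0198). It was also the highest probe of its neighbourhood in these strands. Probe 43161/70 had 0.30 and 0.63 (adjusted p = 0.161), and 43160/20 was lower than genomic DNA, with -1.53 and -1.04 (limma, adjusted p = 0.000921). With normexp background correction the call of 43161/340 was lost (mean 0.53, limma, adjusted p = 0.276), as it was with median centring in place of loess (mean 0.48, adjusted p = 0.257).

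Probe 43684/1040 was high in the longer strands and low in the shorter ones. Its 300–800 nt log2 ratios were 2.41 and 2.74, and its 4 spots ranged from 2.11 to 3.13, the widest range of the 4 sites. In 100–600 nt strands its log2 ratios were -0.76 and -0.60, below 0 on both arrays (mean -0.68 ± 0.11, SD, n = 2; limma SE 0.22, adjusted p = 0.0426). With normexp background correction this call was lost (mean -0.34, limma, adjusted p = 0.485).

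Fragment 43684 is the best covered of the 4, with 5 probes over 1010 bp. At 270 bp from the highest probe, 43684/770 had 300–800 nt log2 ratios of 0.30 and 0.30. The ratio then rose to 0.70 and 0.95 at 43684/520 and to 1.16 and 1.08 at 43684/400, 640 bp from the highest probe, and was 0.58 and 0.48 at 43684/30. The profile therefore had a second, lower maximum, separated from the first by a probe near the median. Probe 43684/400 was also the highest of this neighbourhood in 100–600 nt strands, with log2 ratios of 0.50 and 1.31 (mean 0.91 ± 0.58, SD, n = 2; limma, adjusted p = 0.0153), a call that was lost with normexp (limma, adjusted p = 0.141) and with median centring (0.0811). The flanking fragments were below 0 in 300–800 nt strands, with a mean log2 ratio of -0.38 at 43683/150, -1.62 at 43683/430, the lowest of the neighbourhood, and -0.64 at 43685/140.

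Probe 45447/140 stood alone on a fragment of 204 bp. Its 300–800 nt log2 ratios were 2.39 and 2.75, with 4 spots between 2.38 and 2.90. Its 100–600 nt log2 ratios were -0.26 and 0.97, on opposite sides of 0 (mean 0.36 ± 0.87, SD, n = 2; limma, adjusted p = 0.378). The nearest probes on either side, 45446/80 and 45449/780, started at least 144 and 208 bp away and had mean 300–800 nt log2 ratios of -0.32 and -0.21. Farther into fragment 45449 the means were 0.85 and 0.64 at 45449/300 and 45449/50, at least 688 and 938 bp away. In 100–600 nt strands none of the 4 neighbours with values on both arrays passed the test (limma, adjusted p from 0.131 at 45446/303 to 0.972 at 45446/80).

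Probe 66995/30 differed from the other sites in its signals. Its 300–800 nt log2 ratios were 2.65 and 2.70, and its 4 spots lay between 2.60 and 2.72. On 100–600 nt replicate 1 its log2 ratio was 0.10, and on replicate 2 its spot was marked as non-uniform in the nascent channel, so that it was not tested. With marked spots kept, the mean over both arrays was 0.43 (limma, adjusted p = 0.249). Its neighbour 66995/340, at 310 bp, had 300–800 nt log2 ratios of -0.24 and 0.17, and 66996/1480, at least 126 bp away on the other side, had -1.53 and -1.40. The remaining 5 probes of fragment 66996 had 300–800 nt means between -0.83 and 0.46. Among them 66996/1230 was lower in 100–600 nt strands, with log2 ratios of -1.33 and -0.20 (limma, adjusted p = 0.0486). This call was lost with all 4 arrays in the fit, with marked spots kept and with normexp (limma, adjusted p of 0.0915, 0.0816 and 0.113).

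**Figure D1:**
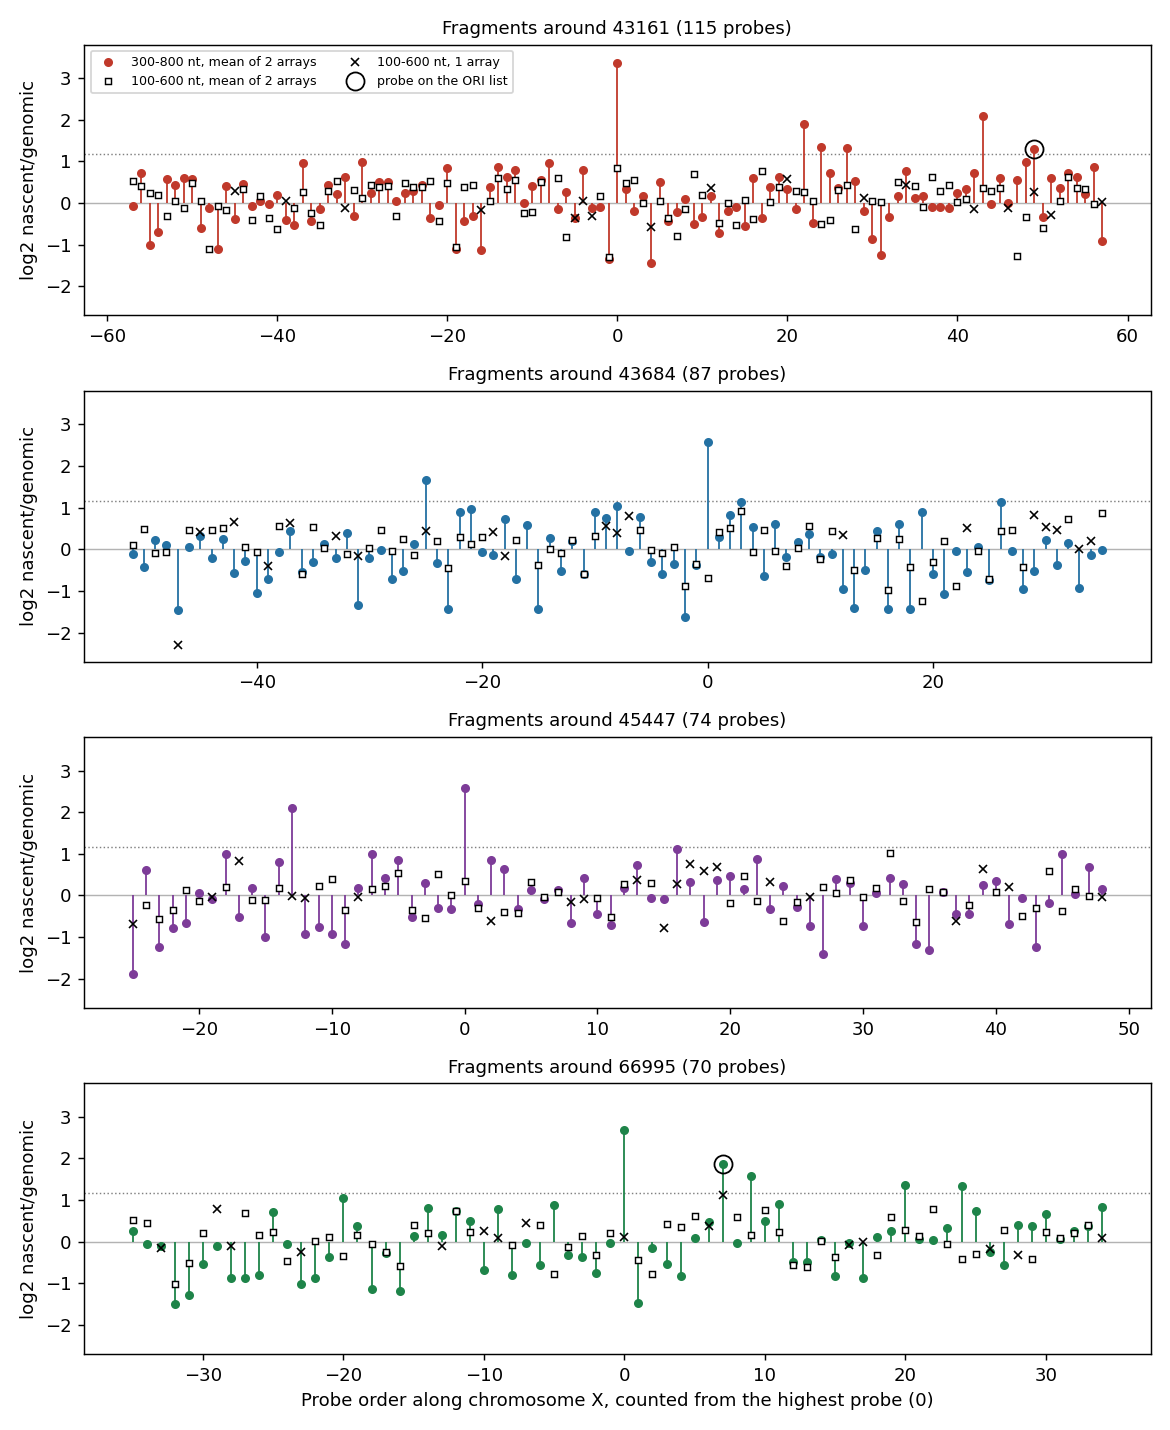
Log2 ratio of nascent to genomic DNA (vertical axis) for the 115, 87, 74 and 70 probes around each site, in their order along chromosome X (horizontal axis, highest probe at 0). Filled circles are means of the 2 arrays of 300–800 nt strands, open squares and crosses are 100–600 nt strands on 2 arrays and on 1, large rings mark the 2 probes on the ORI list, and the dotted line is the 0.95 quantile over all probes (1.16). In each panel the tall central stem stands between low neighbours, and only at 43161 does the square at 0 lie far above the axis.

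The edge of the choice was narrow. The lowest of the 4 chosen sites had a mean log2 ratio of 2.57 (45447/140), and the next unlisted fragment, 45485, reached 2.41 at 45485/120 and was not included. Among all 19805 probes, after loess normalisation, the 4 sites ranked 1 (43161/340), 6 (66995/30), 9 (43684/1040) and 10 (45447/140).

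The ORI list holds 4 probes with a 300–800 nt mean at or above 2.57, and these give a scale for strong sites. Their means in 100–600 nt strands ranged from 0.40 to 2.04, 1 of them (0.78) from a single array. The 4 unlisted probes ranged from -0.68 to 0.84, with the value of 66995/30 also from a single array. The ranges overlapped, since 43161/340, at 0.84, lay above the listed means of 0.40 and 0.78. In the genomic channel of the 300–800 nt arrays these 4 listed probes lay between percentiles 17.6 and 69.3 of all probes. For scale at a distance, 112 probes lie within 400 bp of the highest probe of a listed ORI in the same fragment, and their median 300–800 nt log2 ratio was 0.70 (quartiles 0.28 and 1.13). At 250 to 350 bp the median was 0.89 (quartiles 0.42 and 1.24, n = 46), and the 3 probes at such distances from the unlisted sites had -0.04, 0.30 and 0.34. The list was drawn up from the 300–800 nt arrays with a filter that asks for enrichment of several probes in a window, so its neighbours were partly selected to be high, and no test was made.

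**Figure D2:**
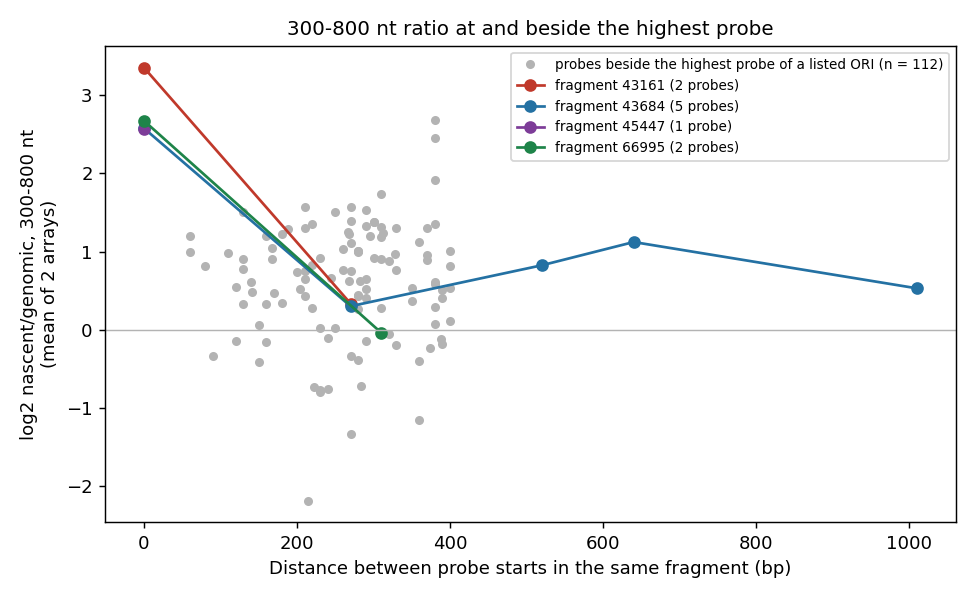
Mean 300–800 nt log2 ratio (vertical axis) against the distance in bp between probe starts within a fragment (horizontal axis). Coloured points joined by lines are the probes of the 4 fragments, the highest probe being at 0, and grey points are the 112 probes within 400 bp of the highest probe of a listed ORI. The lines drop to between -0.04 and 0.34 at 270 to 310 bp, and only the line of 43684 goes on, rising to 1.12 at 640 bp.

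At 3 of the 4 sites the high ratio went with a very low genomic signal. On the 300–800 nt arrays the genomic signal of 43161/340 was 20.0 to 31.0 scanner units above local background over 4 spots, that of 43684/1040 was 20.5 to 30 and that of 45447/140 was 32.0 to 39.0. The medians over all tiled spots were 133.0 and 145.5 on the 2 arrays, and the 5th percentiles were 49.0 and 54.0, so that all 12 spots lay under the 5th percentile. By rank of processed signal these probes lay at percentiles 0.0757 and 0.177 (43161/340), 0.399 and 0.273 (43684/1040), and 2.19 and 1.02 (45447/140) of the genomic channel on the 2 arrays. Their nascent signals lay below the median too, between 105.0 and 257.0 units, against medians of 276.5 and 275.5. In the nascent channel they lay at percentiles 24.3 and 26.8 (43161/340), 18.9 and 19.6 (43684/1040), and 48.3 and 47.3 (45447/140). All of these spots were nonetheless marked by the scanner software as well above background in the genomic channel.

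At 66995/30 the nascent channel was bright and the genomic channel near the median. Its genomic signal was 114.5 to 127.0 units above background on the 300–800 nt arrays, at percentiles 49.0 and 48.0. Its nascent signal was 2250.5 to 2420.0 units, above the 95th percentile of all spots (1705 and 1666). On the 100–600 nt arrays its nascent signal fell at percentiles 42.7 and 28.4 and its genomic signal at 34.5 and 5.82. It was the only one of the 4 with a nascent signal above the 95th percentile.

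The low genomic signal was seen on the shorter strands too, where the genomic DNA carried the other dye. Probe 43161/340 lay at percentiles 3.02 and 0.843 of the genomic channel on the 100–600 nt arrays, 45447/140 at 7.89 and 7.30, and 43684/1040 at 1.25 and 17.3. In the nascent channel of these arrays 43684/1040 was also dim, at percentiles 0.0555 and 3.07. The part of the low genomic signal in the ratios was not tested.

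**Figure D3:**
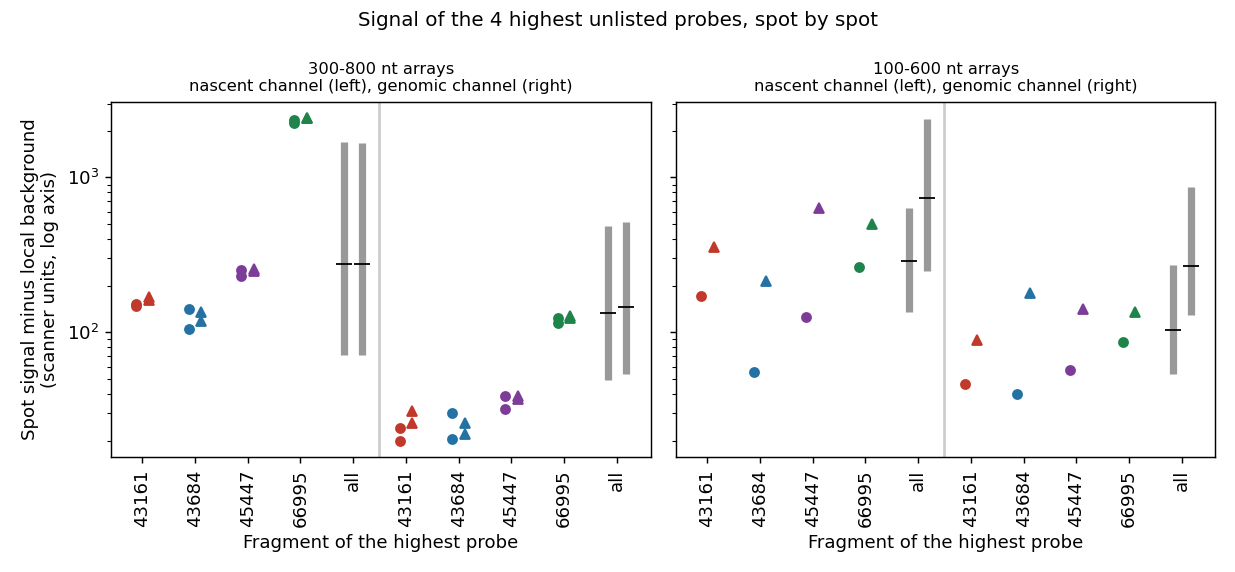
Spot signal minus local background in scanner units (log axis) for the highest probe of each site, in the nascent and the genomic channel of the 300–800 nt arrays (left panel) and the 100–600 nt arrays (right panel). Circles are spots of replicate 1, triangles of replicate 2, grey bars span the 5th to 95th percentile of all tiled spots on each array and black ticks are their medians. In the left panel the genomic points of 43161, 43684 and 45447 lie under the grey bars, while the nascent points of 66995 lie over them.

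The scatter of repeated spots was widest at 43684. The 2 spots of a probe on 1 array differed by a median log2 ratio of 0.122 over all probes, and of 0.229 over the 984 probes under the 5th percentile of genomic signal. The differences were 0.286 and 0.113 at 43161/340, 0.0290 and 0.30 at 45447/140, and 0.0945 and 0.0362 at 66995/30. At 43684/1040 they were 0.601 and 0.765. The 2 arrays differed by 0.408 at 43161/340, 0.332 at 43684/1040, 0.360 at 45447/140 and 0.0564 at 66995/30. The median difference between arrays was 0.0724 over all probes and 0.151 over those under the 5th percentile of genomic signal. All 16 spots at the 4 sites had a log2 ratio above 2. Their averages are the ratios by which the sites were chosen, so this is a description only.

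The size of the ratio at the 3 dim sites changed with normexp background correction and its offset. With normexp background correction, which models the background and adds an offset of 50 to each channel, the 300–800 nt log2 ratios of 43161/340 became 0.93 and 0.41, those of 43684/1040 became 0.74 and 0.30, and those of 45447/140 became 1.32 and 0.64. The means of the first 2 then lay under the 0.95 quantile over all probes (0.85), and that of 45447/140 at 0.98 lay above it. The ratios of 66995/30 were 2.65 and 2.71, and it then ranked 1 among 19805 probes, with 43161/340, 43684/1040 and 45447/140 at ranks 1759, 2794 and 633. The offset is larger than the genomic signals of these last 3 probes (20.0 to 39.0 units above background), and adding it lowers a high ratio by itself. No run without the offset was made, so the part of the background model in the fall was not tested. With median centring in place of loess, the means were 2.70, 1.95, 2.19 and 3.22 in the order 43161, 43684, 45447 and 66995. All lay above the quantile of 1.34, and their ranks were 36, 227, 126 and 13 in the same order. The ranks of the sites among all probes thus depended on the processing.

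**Figure D4:**
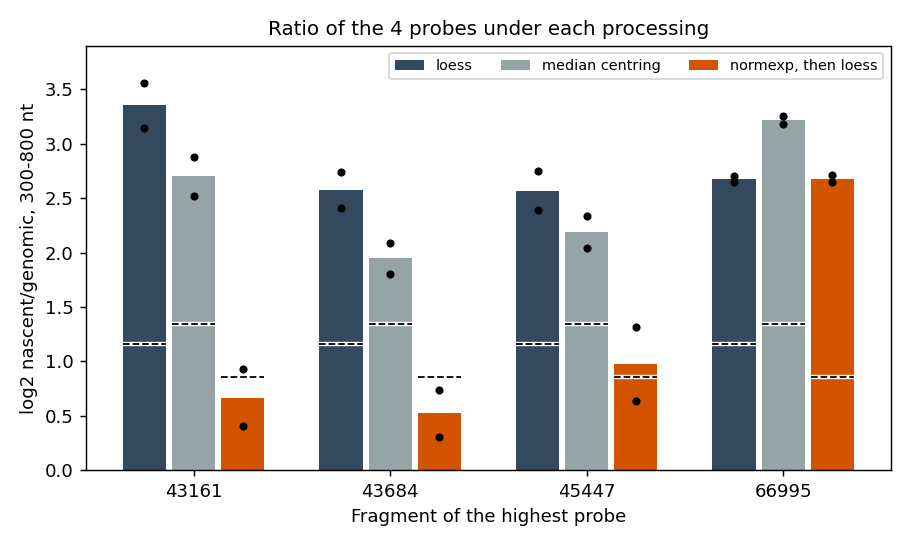
300–800 nt log2 ratio (vertical axis) of the highest probe of each site under loess, under median centring, and under normexp background correction followed by loess. Bars are means of the 2 arrays, dots are the arrays, and the dashed line across each bar is the 0.95 quantile over all probes for that processing. The bars of 43161, 43684 and 45447 fall to 0.67, 0.52 and 0.98 with normexp while that of 66995 remains at 2.68.

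The surroundings as a whole lay at the centre of the array. The median 300–800 nt log2 ratio of the 346 probes was 0.0019, against 0.0024 over all 19805 probes. By neighbourhood it was 0.16 around 43161, -0.12 around 43684, 0.05 around 45447 and -0.03 around 66995, each within the quartiles of all probes (-0.47 and 0.47). In 100–600 nt strands the median was 0.08, against 0.02 over all probes. By neighbourhood it was 0.11, 0.19, -0.02 and 0.11 in the same order.

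In 100–600 nt strands 11 of the 268 probes tested were higher than genomic DNA and 15 were lower (limma over 15478 probes, Benjamini-Hochberg adjusted p under 0.05). These shares, 4.10% and 5.60%, stood beside 3.79% and 9.58% over all probes tested, so the share of higher probes was near the background and that of lower probes under it. Around 43161 there were 3 higher and 6 lower, around 43684 3 and 6, around 45447 1 and 0, and around 66995 4 and 3. Around 45447, where limma called no probe lower, 6 of the 53 probes tested had an unadjusted p under 0.05 and a mean below 0. Over all probes tested 2676 of 15478 did so. The split of called probes around the sites depended on the processing, with 5 higher and 19 lower under median centring and 2 higher and 6 lower under normexp. It moved the same way over all probes, of which 2.31% were higher and 10.5% lower under median centring, and 0.730% and 4.74% under normexp. The shares around the sites were 1.87% and 7.09% under median centring, and 0.746% and 2.24% under normexp.

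Apart from 43161/340, the largest means among probes called higher in 100–600 nt strands were not at the highest 300–800 nt probe of a site. Probe 66997/130 had the largest mean of usable arrays around the sites (1.13), but from replicate 2 alone, so it was not tested. On that array 45464/190 (1.45), 43684/400 (1.31) and 43161/340 (1.19) were higher. Probe 66997/130 was high in 300–800 nt strands too (1.98 and 1.74), as, to a lesser degree, was 43684/400 (1.16 and 1.08). Probe 45464/190 had 100–600 nt log2 ratios of 0.57 and 1.45 (mean 1.01, limma, adjusted p = 0.00843) and 300–800 nt log2 ratios of 0.41 and 0.44. Probe 43713/10 had 0.73 and 0.99 in 100–600 nt strands (limma, adjusted p = 0.0131) and -0.05 and 0.00 in 300–800 nt strands. Probe 67010/80 had 1.09 and 0.47 (limma, adjusted p = 0.0282) against 0.05 and 0.05, and its call was lost with normexp (limma, adjusted p = 0.0872) and with marked spots kept (0.0516). With 43161/340 and 43684/400, the probes 45464/190, 43713/10 and 67010/80 are the 5 with the largest mean among those called higher.

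Among the probes that were lower in 100–600 nt strands, 43160/20, which flanks the first site, had the lowest mean (-1.29). Probe 43185/270 had 100–600 nt log2 ratios of -1.26 and -1.28 (limma, adjusted p = 0.000766) although its 300–800 nt log2 ratios were 0.59 and 0.50. Probe 43697/10 likewise had -0.71 and -1.76 (limma, adjusted p = 0.00263) against 0.96 and 0.83. Probes 43136/460 and 43149/90 had means of -1.11 and -1.05 (limma, adjusted p of 0.00222 and 0.00385). In 300–800 nt strands these last 2 had means of -0.13 and -1.10.

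A stricter count, of probes above the 0.95 quantile of their own array on both 100–600 nt arrays (0.62 and 0.80), gave 2 of 268 probes, or 0.746%, against 1.29% of all probes. They were 43713/10 and 43171/1470, the latter named after its values were seen, with 0.67 and 0.88. None of the 4 highest 300–800 nt probes was among them, since 43161/340 passed on replicate 2 only and 45447/140 likewise.

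**Figure D5:**
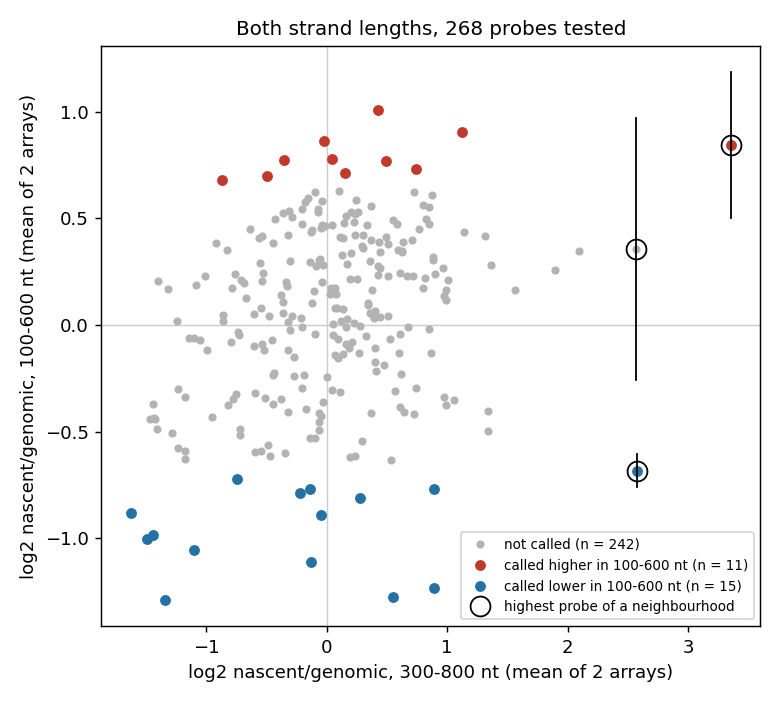
Mean log2 ratio in 100–600 nt strands (vertical axis) against 300–800 nt strands (horizontal axis) for the 268 probes with values on both 100–600 nt arrays. Red and blue points are the 11 and 15 probes called higher and lower in 100–600 nt strands, grey points are not called, rings mark the highest probes of 3 sites (66995/30 has only 1 array) and vertical bars join their 2 arrays. The 3 ringed points are spread from -0.68 to 0.84 on the vertical axis.

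Above the 0.95 quantile of the 300–800 nt ratios (1.16) lay 15 of the 346 probes, the 4 highest included, or 4.34%, against 5.00% of all probes by construction. They numbered 6 around 43161, 2 around 43684, 2 around 45447 and 5 around 66995. Of the 15, 8 were the lone probe of their fragment, against 126 of the other 331, and 8 had a mean genomic signal under the 5th percentile, against 15 of the other 331. These shares, 53.3% each, stood beside 30.6% and 23.9% of all 991 probes above the quantile, and 35.1% of all probes were the lone probe of their fragment. Since the genomic signal is the denominator of the ratio, the last count is tied to the choice and is not a finding about the sites. Of the 10 with values on both 100–600 nt arrays, 5 were above 0 on both and 3 below 0 on both. Among all probes above the quantile, 818 had both values, of which 456 were above 0 on both and 157 below 0 on both.

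The ORI list holds 2 of the 346 probes. Probe 66997/130, listed at the Pdzd4 promoter with a CpG island, lay 2 fragments and at least 1707 bp from 66995/30. Its 300–800 nt log2 ratios were 1.98 and 1.74, it had a C+G content of 60%, and its genomic signal lay at percentile 72.1. Its 100–600 nt log2 ratio was 1.13 on replicate 2, the highest mean of usable arrays in its neighbourhood, and its spot on replicate 1 was left out. Probe 43186/480, listed in an intron of Hs6st2 outside a CpG island, lay 25 fragments and at least 12881 bp from 43161/340. Its 300–800 nt log2 ratios were 1.36 and 1.24, and its 100–600 nt log2 ratio was 0.27 on the 1 array with a usable spot. The probes between 66995/30 and the listed Pdzd4 probe did not join them, as all 6 probes of fragment 66996 lay at or under 0.46 in 300–800 nt strands.

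The lowest 300–800 nt ratios of the remaining neighbourhoods were -1.90 and -1.88 at 45418/20 and -1.50 and -1.49 at 66967/10. The latter was also lower in 100–600 nt strands, with log2 ratios of -1.28 and -0.73 (limma, adjusted p = 0.00623; 0.0523 with normexp), while 45418/20 had a usable 100–600 nt spot on replicate 2 only (-0.69). Over the 268 probes with all values, 66 (24.6%) were above 0 on all 4 arrays and 49 (18.3%) below 0 on all 4, against 22.8% and 21.2% of all probes. Over the 342 probes with a 100–600 nt value, the mean ratios of both strand lengths had a correlation of 0.29 across probes. It was 0.36 over all 19635 probes with such a value. Probes share arrays, fragments and base composition and are not independent.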

How the data were processed

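The deposited files hold scanner output of 4 Agilent 2-colour arrays (Feature Extraction 7.5.1 for 100–600 nt, 9.5.3.1 for 300–800 nt). Per the file headers, the deposited processed signal is an intensity that the scanner software had background-subtracted and dye-normalised. The 300–800 nt files also hold the deposited log10 ratio of red over green. It was turned here to log2 nascent over genomic, centred on the median of each array and used as an alternative. Loess normalisation and window calling by the authors are not in these values.

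Here log2 ratios of processed signals, nascent over genomic, were loess-normalised within arrays (span 0.3, 4 iterations) with limma 3.58.1 in R 4.3.3. Control spots and spots marked saturated, non-uniform, outlying or not found were left out, and spots of a probe were averaged. Probes with values on both 100–600 nt arrays were tested against 0 with lmFit and eBayes, with Benjamini-Hochberg adjustment over 15478 probes. With 1 residual degree of freedom the spread is largely borrowed from all probes (prior degrees of freedom 18.62). The script was tested on simulated data, with 200 of 15478 probes moved by a known log2 ratio. It called 1 of the 200 at a shift of 0.5, 152 at 1 and 200 at 2. A probe with a mean near 0.5 that did not pass is therefore not shown to be unenriched.

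Members and lists were chosen with earlier results of these data known. Named were the probes of the 4 fragments and of the nearest fragment on either side, the highest and lowest 300–800 nt and highest 100–600 nt probe of each neighbourhood, the 5 largest called means in each direction, and members on the ORI list. That list was read from the study's supplement and matched by sequence (150 probes). Its positions fixed the order, since higher fragment numbers and lower offsets lay at higher coordinates in all 28 fragments with several listed probes. Distances across fragments add fragment lengths and are lower bounds. The study names Ensembl mouse build 35, and no genome of it was used. Array number and signal limit the precision. Alternatives were normexp (offset 50), median centring, marked spots kept, medians of spots, single arrays left out, all 4 arrays in 1 fit with and without a replicate block, and another quantile (0.90).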

Additional observations from a re-analysis of the deposited data

Results flagged for a closer look

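Among the 37 named probes with values on all 4 arrays, 10 had log2 ratios of opposite sign in the 2 strand lengths, on both arrays of each. Over all probes with values on 4 arrays 23.1% did so, and 25.4% of the 268 around the sites. The difference between strand lengths was not tested, and strand length cannot be told apart from dye and array design. The 300–800 nt mean exceeded the 100–600 nt mean by 3.26 at 43684/1040, by 2.13 at 43697/10 and by 1.82 at 43185/270. In the other direction the difference, 300–800 nt minus 100–600 nt, was -0.75 at 43162/890, -1.09 at 43685/140, -0.80 at 45446/303, -0.96 at 66996/840, -1.18 at 66996/540, -1.13 at 43171/1470 and -0.62 at 66999/1040. With 2 arrays per strand length no array could be examined as standing apart from its group.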

How the results depend on the processing

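In 300–800 nt strands the direction at the 4 highest probes was the same under every processing run. The means moved with normexp to 0.67 (43161/340), 0.52 (43684/1040) and 0.98 (45447/140), and with median centring to 2.70, 1.95, 2.19 and, at 66995/30, 3.22. The deposited log ratio, also centred on the median of each array, gave the same 4 values to these digits and is not a separate check. The median of the 346 probes was 0.022 with normexp, 0.010 with median centring, 0.0098 with the deposited log ratio and 0.00054 to 0.0011 on single arrays.

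In 100–600 nt strands the calls at 43161/340 (means 0.53 with normexp and 0.48 with median centring) and 43684/1040 (-0.34 with normexp) were lost. So were those of 43684/400 and 43171/1470 with normexp and median centring, 66996/1230 with normexp, marked spots kept and all 4 arrays in the fit, 67010/80 with normexp and marked spots kept, and 66967/10 and 43683/430 with normexp. Single arrays gave 0.50 to 1.19 at 43161/340, -0.76 to -0.60 at 43684/1040 and -0.26 to 0.97 at 45447/140, where the direction turned. Probes called higher numbered 2 with normexp, 5 with median centring and 40 with all 4 arrays in the fit, against 11; called lower were 6 with normexp and 29 with all 4 arrays, against 15. Over all probes tested the shares were 0.730% and 4.74% with normexp, 2.31% and 10.5% with median centring, and 11.8% and 15.0% with all 4 arrays. Leaving out 1 array of 100–600 nt gave 97 to 144 higher and 77 to 90 lower, a fit that takes its spread from the closely matching 300–800 nt arrays (over all probes 32.3% to 37.0% and 31.1% to 35.6%). Probes above the quantile on both arrays numbered 6 of 346 with marked spots kept (1.39% of all probes) and 11 of 268 at the 0.90 quantile (3.29% of all probes), against 2. Above the 0.95 quantile of 1 array alone there were 14 of 314 and 19 of 296, against 5.00% of all probes by construction. Of uncalled probes, 43684/30 (0.0099) and 43162/740 (0.15) turned sign with median centring, as did 45446/80 (-0.30, and -0.028 with marked spots kept). On single arrays 43162/10 (-0.14 to 0.23), 43684/30 (-0.23 to 0.10), 45449/50 (-0.98 to 0.16), 43162/740 (-0.11 to 0.091), 45446/80 (-0.26 to 0.29) and 45450/100 (-0.073 to 0.73) did so too. Over all values and alternatives computed, 296 counted as the same in direction and, where one applied, in their side of the threshold. Fits with 1 array left out included, 49 passed it newly, 14 lost it and 11 turned direction. Another 31, all of them counts, medians or 300–800 nt ratios, moved.

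Replicate numbers paired nothing but a label. The deviations of same-numbered arrays had a correlation of -0.00973 over 15478 probes, and with only 2 numbers no further check was possible. A fit with a replicate block and all 4 arrays gave 50 higher and 39 lower probes (13.0% and 18.6% of all probes). It changed no call at 43161/340, 43684/1040 and 45447/140, 66995/30 not being tested, and newly called 43161/70 and 43684/520 (limma, adjusted p of 0.0327 and 0.0224) among 8 named probes.

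At 66995/30 the marked spot left 1 array, so its 100–600 nt level is known from 1 spot. At the other sites genomic signals within 39.0 units of background limit the precision of the 300–800 nt ratios.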
